A study of Mus musculus with 8 samples.

Results

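Chemokines are small secreted proteins that guide the migration of leukocytes and their progenitors through G protein-coupled receptors. Each ligand binds a restricted set of receptors, atypical receptors remove ligands without classical signaling, and heparan sulfate on cell surfaces holds most ligands near the cells that make them. In bone marrow, perisinusoidal mesenchymal stem/progenitor cells (MSPCs) are known as the main source of CXCL12, the CXCR4 ligand that keeps hematopoietic stem cells, B cell precursors and neutrophils in the tissue.

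The data set described here comprises 10 chemokine ligand genes, taken from 52636 genes in a bulk RNA sequencing count matrix of sorted MSPCs. The 10 are Cxcl12, Cxcl14, Cxcl1, Cxcl9, Cxcl10, Cxcl16, Ccl2, Ccl7, Ccl9 and Cx3cl1. They were selected on their levels in MSPCs and on their values in CTR against cKO mice, so that the comparison of genotypes is given for them as a description without a test. Counts of all 10 were above 0 in each of the 8 libraries, a filter that 14598 genes passed. By class, 6 are CXC chemokines, 3 are CC chemokines and 1 is the CX3C chemokine. In GENCODE M21 on GRCm38, 4 lie on chromosome 11 (Ccl2, Ccl7, Ccl9 and Cxcl16) and 3 on chromosome 5 (Cxcl1, Cxcl9 and Cxcl10).

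MSPCs were sorted from 4 CTR mice (Flk2-cre+ Cxcr4fl/+) and 4 cKO mice (Flk2-cre+ Cxcr4fl/fl), each library coming from an individual mouse on a C57BL/6 background. The labels give an age of 6 weeks for all 8 mice, whereas the methods give an older range for all mice of the study. Both groups carry the Flk2-cre transgene, which is inserted in the Y chromosome and is active in hematopoietic progenitors from the multipotent stage onward, and the CTR mice retain 1 unfloxed Cxcr4 allele. Cxcr4 was thus deleted in blood cells from that stage onward, and not in hematopoietic stem cells or in the MSPCs that were sequenced. Both groups also carry GFP at the Kitl locus, since the cells were gated as CD45- Ter119- CD31- CD144- PDGFRα+ SCF-GFP+ after collagenase digestion, and were sorted a second time with the same gate. The comparison addresses whether niche cells change their chemokine output when blood cells other than stem cells cannot respond to CXCL12.

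Total counts ranged from 31047344 to 38216877 per library, and 18366 to 20684 genes had a count. The 7 MSPC markers were abundant in every library, with Lepr between 3578 and 5026 CPM (counts scaled to library size by TMM) and Adipoq between 1989 and 3974. Markers of cells that the gate excludes were low but present. Among endothelial markers Tek was at 0 in all libraries, and the highest values were 6.26 CPM for Flt4 and 4.49 CPM for Emcn. Among myeloid markers Itgam had at most 7 counts and S100a9 lay between 7.02 and 28.4 CPM. The erythroid gene Hbb-bs lay between 25.3 and 114 CPM. The B and plasma cell list summed to 0.258 to 212 CPM in CTR, with its maximum in CTR replicate 3, and to 0.828 to 5.29 in cKO. Sample titles also carry a number, which lies between 26 and 32 for CTR and cKO replicates 2 and 4 and between 67 and 86 for replicates 1 and 3. The labels do not explain this number. It was not used to choose the ligands, so that the ligands were tested between these title number groups with genotype as a term. Throughout, fewer cells of a type and less RNA per cell cannot be told apart in bulk libraries.

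Cxcl12 was the most abundant transcript of MSPCs by counts. It ranked 1 of all genes by mean CPM and 3 per kilobase of exon, and took 4.00% to 4.99% of all counts in a library. The CTR libraries held 45526, 39573, 49957 and 43358 CPM in replicates 1 to 4, and the cKO libraries held 44867, 44111, 50614 and 39639 CPM. The 2 genotypes overlapped throughout, with means of 44603 ± 4335 CPM in CTR and 44808 ± 4506 in cKO (SD, n = 4), and the difference was 0.01 on the log2 scale (SE 0.14). Cxcl12 was also the least variable ligand from mouse to mouse, with a coefficient of variation of 9.16% over 8 libraries. Together the 10 ligands took 4.43% to 5.44% of counts, of which Cxcl12 alone made up 87.4% to 92.6%.

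The 300-base window around the transcript start of Cxcl12 is shown because this gene dominates the set. It spans chr6:117168285-117168584 on the plus strand of GRCm38.p6 (250 bases before to 50 bases after the start, from RefSeq). It has a GC content of 64.7% against a median of 52.7% over all windows.
Cxcl12: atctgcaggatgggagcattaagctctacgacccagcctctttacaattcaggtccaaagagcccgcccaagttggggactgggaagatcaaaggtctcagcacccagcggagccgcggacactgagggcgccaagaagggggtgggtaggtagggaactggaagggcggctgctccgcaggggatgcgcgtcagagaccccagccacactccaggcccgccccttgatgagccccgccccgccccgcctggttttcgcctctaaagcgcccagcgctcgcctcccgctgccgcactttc
None of the 3 motifs searched on both strands was found in these letters. They were the interferon response element core GAAANNGAA, the STAT motif TTCNNNGAA and the NF-kB motif by name, which 8.56%, 8.3% and 8.46% of 32851 windows of the same length hold.

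Per kilobase of exon, the ligands spanned more than 3 orders of magnitude. Cxcl12 had a mean of 5468 CPM per kilobase and was followed by Cxcl14 (1962), Cx3cl1 (103), Cxcl9 (54.7), Ccl9 (36.2), Ccl2 (31.7), Cxcl10 (23.0), Ccl7 (15.2), Cxcl16 (5.35) and Cxcl1 (1.25). Neighbours in this order had separate ranges over the 8 libraries only for Cxcl12 and Cxcl14, Cxcl14 and Cx3cl1, and Cxcl16 and Cxcl1. The ranges of neighbours from Cx3cl1 down to Cxcl16 overlapped, which leaves out that both genes are measured in the same libraries. Within libraries Ccl7 exceeded Cxcl16 in 8 of 8 and Cx3cl1 exceeded Cxcl9 in 7. Cxcl9 exceeded Ccl9 in 6 and Cxcl10 exceeded Ccl7 in 6. Ccl9 exceeded Ccl2 in 5, and Ccl2 exceeded Cxcl10 in 5. The plot of ligand levels by library is in order of mean CPM without the length correction, where Cxcl10 precedes Ccl2 and Cxcl16 precedes Ccl7.

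**Figure D1:**
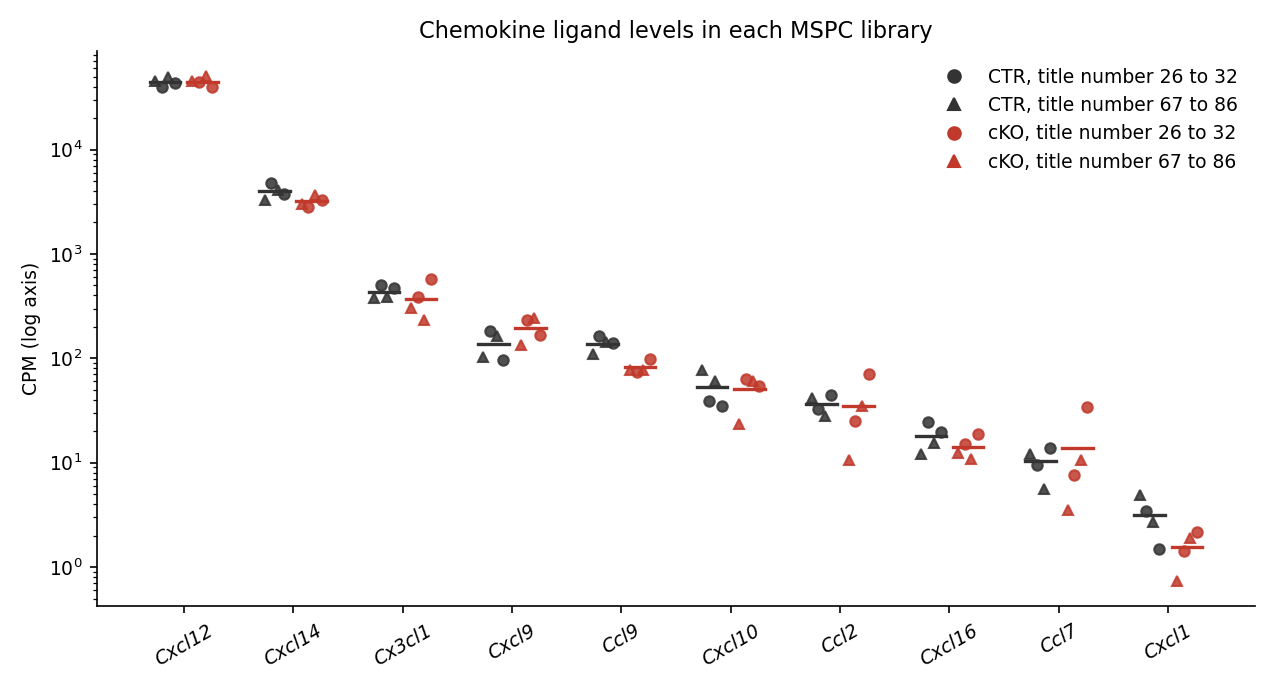
CPM of the 10 ligands in each library on a log axis, in order of mean CPM, with CTR in black and cKO in red, circles for title numbers 26 to 32, triangles for 67 to 86 and bars for the mean of 4 libraries. Cxcl12 lies near 44706 CPM in both genotypes, and Ccl9 is the ligand whose 4 cKO points all lie below the 4 CTR points.

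Among the 10 ligands, 3 had a higher and 7 a lower fitted level in cKO, with a median log2 fold change of -0.14 against -0.0013 over all genes tested. Ligands of the CXC class (2 higher, 4 lower) and of the CC class (1 higher, 2 lower) did not separate by direction. The 4 cKO libraries lay outside the range of the 4 CTR libraries for 1 of 10 ligands, Ccl9, where 2.61% of all genes did so and 1.27% did so with cKO below CTR. These counts describe the contrast that chose the ligands, and nothing is read from them. In the same contrast the quasi-likelihood test of edgeR, adjusted by Benjamini-Hochberg, called 0.0% of all genes. The study's own test, which had a batch term, did call genes in these libraries. The study plotted Ccl9 and Cxcl9 as different between genotypes, so that their differences given below are not independent of that result.

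Ccl9, a CCR1 ligand known from myeloid cells and osteoclasts, was the ligand with the clearest separation. CTR libraries held 110, 162, 143 and 139 CPM and cKO libraries held 76.5, 73.5, 77.9 and 99.2 CPM. All cKO libraries were lower than all CTR libraries, and cKO replicate 4 stood apart from the 3 other cKO libraries. The means were 138.5 ± 21.4 and 81.8 ± 11.8 CPM (SD, n = 4), which is a log2 fold change of -0.76 (SE 0.14). The difference of mean log2 CPM was -0.81 within title numbers 26 to 32 and -0.70 within 67 to 86, and the fold change ranged from -0.87 to -0.68 when each library was left out in turn.

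Cxcl14, a homeostatic chemokine whose receptor is not settled, was the other highly abundant ligand and ranked 20 of all genes by mean CPM. CTR libraries held 3270, 4745, 4082 and 3787 CPM, and cKO libraries held 3035, 2796, 3657 and 3304 CPM. The ranges overlapped through CTR replicate 1, which lay below 2 cKO libraries. The log2 fold change was -0.31 (SE 0.14), with -0.48 within title numbers 26 to 32 and -0.13 within 67 to 86.

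The start site windows of Ccl9 and Cxcl14 are shown because their levels had a high coefficient with each other over the 8 libraries. They are given 5′ to 3′ on the gene's own strand, which is the minus strand for both, with motif matches in capitals. The windows span chr11:83578587-83578886 and chr13:56296502-56296801 in GRCm38.p6.
Ccl9: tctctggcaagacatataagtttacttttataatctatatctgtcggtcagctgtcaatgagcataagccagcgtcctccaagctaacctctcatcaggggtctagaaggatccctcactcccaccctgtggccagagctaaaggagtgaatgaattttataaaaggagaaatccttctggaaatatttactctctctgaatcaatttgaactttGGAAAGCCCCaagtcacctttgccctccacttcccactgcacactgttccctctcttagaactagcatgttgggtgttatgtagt
Cxcl14: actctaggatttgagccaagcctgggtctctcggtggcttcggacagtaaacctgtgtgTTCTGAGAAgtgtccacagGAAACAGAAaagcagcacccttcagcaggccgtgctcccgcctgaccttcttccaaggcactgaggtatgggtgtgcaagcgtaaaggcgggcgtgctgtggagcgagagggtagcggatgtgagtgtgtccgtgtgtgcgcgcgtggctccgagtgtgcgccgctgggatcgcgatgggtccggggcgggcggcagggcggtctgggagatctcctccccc
The Ccl9 window held an NF-kB motif match 35 bases before the start. The Cxcl14 window held a STAT motif match 191 bases before the start and an interferon response element core 172 bases before it, and these 2 matches do not overlap. The windows shared no motif of the 3, and a match in letters is not evidence of a bound site.

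Pearson's r between log2 CPM of Ccl9 and Cxcl14 was 0.84 over 8 libraries and Spearman's rho was 0.90. Both genes had lower fitted levels in cKO, the contrast that chose them, so that these coefficients are a description. Within genotypes r was 0.74 (exact permutation within genotypes, adjusted p = 0.368 over 45 pairs). The coefficient was 0.85 for deviations within title number groups and 0.68 without the 2 libraries farthest from the median of Ccl9. CTR replicate 2 had the highest and cKO replicate 2 the lowest level of both genes.

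Values of other gene lists are given beside the Ccl9 difference, with 0 of their genes called, where 0.0% of all genes were. The 16 immediate early genes tested, which respond within minutes to stimulation or tissue dissociation, had a lower fitted level in cKO for 14 genes (median log2 fold change -0.37), with summed levels of 2013 to 2836 CPM in CTR and 1696 to 1983 in cKO. The 30 interferon-stimulated genes tested had a higher fitted level in cKO for 29 genes (median 0.43), with summed levels of 2095 to 2850 CPM in CTR and 2693 to 3957 in cKO. Both lists hold genes that the study plotted as different between genotypes in these libraries, so that their values are a description. An unadjusted p under 0.05 (edgeR) was found for 17 interferon-stimulated and 5 immediate early genes, where 4.43% of all genes had one. In the myeloid list and the erythroid and platelet list, 0 genes had one. All 5 genes tested in each of these 2 lists nevertheless had a higher fitted level in cKO, with median log2 fold changes of 0.43 and 0.53. Over the 8 libraries, log2 CPM of Ccl9 had a Pearson's r of 0.92 with the mean of the immediate early list and -0.87 with that of the interferon-stimulated list, in libraries that also differ by genotype. The myeloid list, of which 5 of 12 genes were tested, summed to 30.02 to 89.6 CPM in CTR and 51.6 to 94.9 in cKO, and its mean had an r of -0.73 with Ccl9. Erythroid and platelet genes summed to 53.8 to 157 CPM in CTR and 120 to 221 in cKO. The part of these lists in the Ccl9 difference was not tested.

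**Figure D2:**
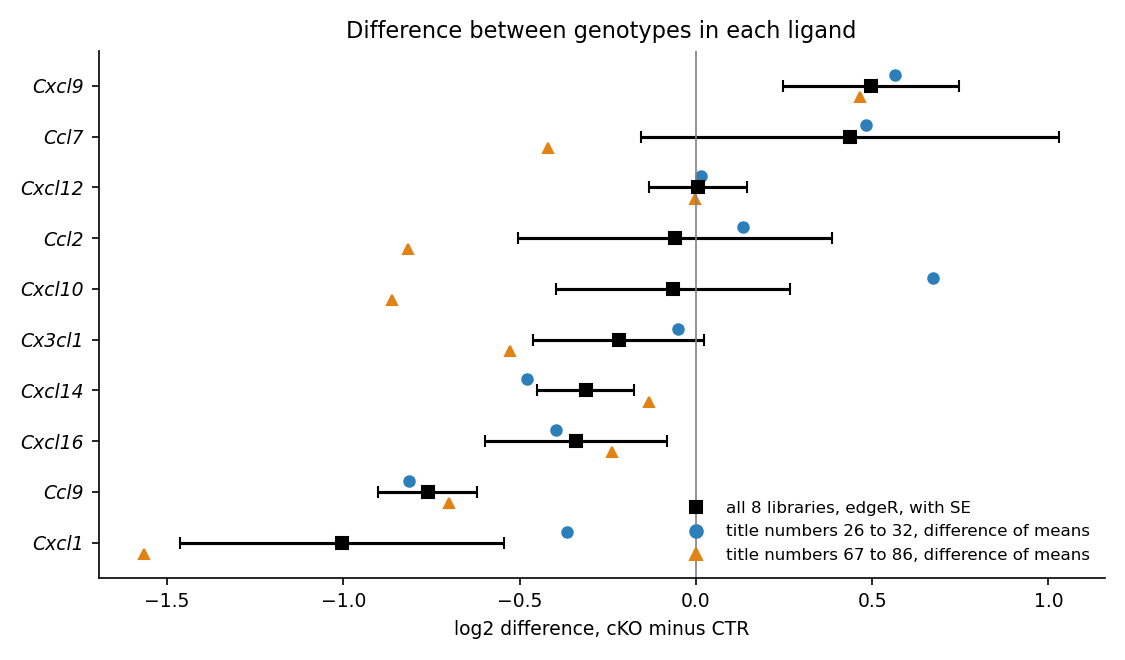
Log2 difference between cKO and CTR for each ligand, with squares and SE bars from edgeR over 8 libraries, and circles and triangles for the difference of mean log2 CPM within title numbers 26 to 32 and 67 to 86. Both within-group differences of Ccl9 lie to the left of 0 (-0.81 and -0.70), those of Cxcl9 to the right (0.57 and 0.47), and those of Cxcl10 on opposite sides (0.67 and -0.86).

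Cxcl9 and Cxcl10 are ligands of CXCR3 that recruit activated T cells and NK cells and are known to be induced by interferon-γ. Their genes are neighbours on the minus strand of chromosome 5, 18.6 kb apart. The windows at chr5:92328030-92328329 and chr5:92348840-92349139 (GRCm38.p6) are shown because the 2 genes are neighbours that share an inducer.
Cxcl9: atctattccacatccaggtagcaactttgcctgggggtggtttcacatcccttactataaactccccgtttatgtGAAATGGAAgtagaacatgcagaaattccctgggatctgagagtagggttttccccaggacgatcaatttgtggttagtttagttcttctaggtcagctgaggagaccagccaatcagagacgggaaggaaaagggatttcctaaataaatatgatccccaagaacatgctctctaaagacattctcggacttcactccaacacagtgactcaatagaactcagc
Cxcl10: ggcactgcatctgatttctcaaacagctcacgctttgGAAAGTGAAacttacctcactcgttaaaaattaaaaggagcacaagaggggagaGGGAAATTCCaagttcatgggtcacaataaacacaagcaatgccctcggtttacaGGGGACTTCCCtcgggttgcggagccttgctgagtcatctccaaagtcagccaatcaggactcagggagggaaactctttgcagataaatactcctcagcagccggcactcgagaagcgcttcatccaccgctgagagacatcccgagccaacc
Capitals mark the same motifs as above. The interferon response element core was present 175 bases before the start in Cxcl9 and 213 bases before it in Cxcl10. The Cxcl10 window also held NF-kB motif matches starting 159, 104 and 103 bases before the start, the last 2 of which overlap.

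Cxcl9 had the highest fitted log2 fold change in cKO among the ligands. CTR libraries held 103, 184, 165 and 95.4 CPM, and cKO libraries held 135, 231, 241 and 167 CPM. Replicates 2 and 3 were the higher ones in both genotypes, and the ranges overlapped between 135 and 184 CPM. The means were 136.9 ± 44.2 CPM in CTR and 193.2 ± 50.8 in cKO (SD, n = 4), for a log2 fold change of 0.50 (SE 0.25), with 0.57 within title numbers 26 to 32 and 0.47 within 67 to 86.

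For Cxcl10, CTR libraries held 76.7, 39.3, 61.2 and 34.8 CPM, and cKO libraries held 23.2, 63.3, 61.2 and 54.9 CPM. The highest library was CTR replicate 1 and the lowest cKO replicate 1, and the genotypes overlapped almost fully. The log2 fold change was -0.06 (SE 0.33), and it joined opposite directions, with 0.67 within title numbers 26 to 32 and -0.86 within 67 to 86. A test of the difference between these 2 values was run but is not reported, since it belongs to the contrast that chose the ligands. Pearson's r between Cxcl9 and Cxcl10 was 0.29 and Spearman's rho 0.24 (exact permutation, adjusted p = 0.796 and 0.891), with 0.41 within genotypes, 0.30 within title number groups and 0.72 without the 2 libraries farthest from the median of Cxcl9. The count ratio of Cxcl9 to Cxcl10 ranged from 1.34 in CTR replicate 1 to 5.81 in cKO replicate 1.

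Ccl2 and Ccl7 are CCR2 ligands that draw monocytes out of the marrow, and their genes are neighbours on the plus strand of chromosome 11, 8.26 kb apart. For Ccl2, CTR libraries held 41.9, 32.9, 28.0 and 44.3 CPM, and cKO libraries held 10.7, 25.0, 35.2 and 70.1 CPM. For Ccl7, CTR libraries held 12.2, 9.57, 5.58 and 13.96 CPM, and cKO libraries held 3.55, 7.68, 10.6 and 34.0 CPM. In both genes cKO replicate 1 was the lowest and cKO replicate 4 the highest of all 8 libraries, so that the cKO range enclosed the CTR range.

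The log2 fold change was -0.06 for Ccl2 (SE 0.45) and 0.44 for Ccl7 (SE 0.59). Without cKO replicate 4 it was -0.64 for Ccl2 and -0.50 for Ccl7, and without cKO replicate 1 it was 0.24 for Ccl2 and 0.76 for Ccl7. The sign of Ccl7 turned only without cKO replicate 4, whereas that of Ccl2, close to 0, also turned without cKO replicate 2 (0.07), CTR replicate 1 (0.0074) or CTR replicate 4 (0.04). Ccl7 had the largest coefficient of variation of all ligands, 77.9% over 8 libraries, and Ccl2 had 48.1%.

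The 2 genes formed the most closely linked pair of ligands. Pearson's r of log2 CPM was 0.94 (exact permutation p = 0.00174, adjusted p = 0.0781), and Spearman's rho was 0.98 (exact permutation p = 0.000397, adjusted p = 0.0179), which was the only one of 45 pairs past the threshold by rank and none was by Pearson's r. The coefficient was 0.88 without the 2 libraries farthest from the median of Ccl2, 0.93 within title number groups and 0.97 within genotypes (exact permutation within genotypes, adjusted p = 0.0781). The ratio of Ccl2 to Ccl7 counts was not fixed, from 2.06 in cKO replicate 4 to 5.03 in CTR replicate 3. How reads shared by similar genes were counted is not given in the sources used here.

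Cxcl1, a CXCR2 ligand that mobilizes neutrophils, was the least abundant ligand, at 24 to 151 counts per library. CTR libraries held 4.88, 3.48, 2.69 and 1.49 CPM and cKO libraries held 0.733, 1.42, 1.90 and 2.18 CPM. CTR replicate 4 lay below 2 cKO libraries, so that the genotypes overlapped. The log2 fold change of -1.004 (SE 0.46) was the largest in size among the ligands and among the least precise, with -0.37 within title numbers 26 to 32 and -1.56 within 67 to 86. The start site window of Cxcl1 (chr5:90890995-90891294) held 2 overlapping NF-kB motif matches, 71 and 70 bases before the start.

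Cx3cl1 and Cxcl16 are the membrane-anchored chemokines, which hold CX3CR1+ and CXCR6+ cells on the producing cell and are released by ADAM10 and ADAM17. For Cx3cl1, CTR libraries held 380, 502, 386 and 472 CPM, and cKO libraries held 306, 384, 231 and 575 CPM. For Cxcl16, CTR libraries held 12.1, 24.7, 15.5 and 19.8 CPM, and cKO libraries held 12.4, 15.0, 10.8 and 18.8 CPM. In both genes cKO replicate 3 was the lowest library and replicates 2 and 4 exceeded replicates 1 and 3 on average. Between genotypes the ranges overlapped, with log2 fold changes of -0.22 for Cx3cl1 (SE 0.24) and -0.34 for Cxcl16 (SE 0.26).

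The title number groups differed most clearly, though short of the threshold, in these 2 ligands. Cx3cl1 averaged 483 ± 79.1 CPM at title numbers 26 to 32 and 326 ± 73.1 at 67 to 86, and Cxcl16 averaged 19.6 ± 3.99 and 12.7 ± 1.99 CPM (SD, n = 4). The log2 fold change of 67 to 86 against 26 to 32 was -0.59 for Cx3cl1 (95% CI -0.96 to -0.23, adjusted p = 0.240) and -0.61 for Cxcl16 (95% CI -1.01 to -0.21, adjusted p = 0.266) by edgeR with genotype as a term. Of 10 ligands, 2 thus had an unadjusted p under 0.05, where 11.6% of all genes did, and 0 were called after adjustment, where 0.0137% of all genes were. The title number groups overlapped in both genes.

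Cxcl12 was the ligand whose 4 libraries of title numbers 67 to 86 all lay above the 4 of 26 to 32, where 7.69% of all genes did not overlap. Its means were 47741 ± 2962 and 41670 ± 2404 CPM (SD, n = 4), with a log2 fold change of 0.20 (95% CI -0.04 to 0.43, adjusted p = 0.502 by edgeR). The separation was narrow, with 44867 CPM as the lowest library of 67 to 86 and 44111 as the highest of 26 to 32. The 7 other ligands had adjusted p-values between 0.529 and 0.966, and over all 10 the median log2 fold change was -0.14 against -0.0065 over all genes. The intervals for Ccl7 (-2.24 to 0.27) and Ccl2 (-1.58 to 0.39) leave room for large differences in either gene.

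**Figure D3:**
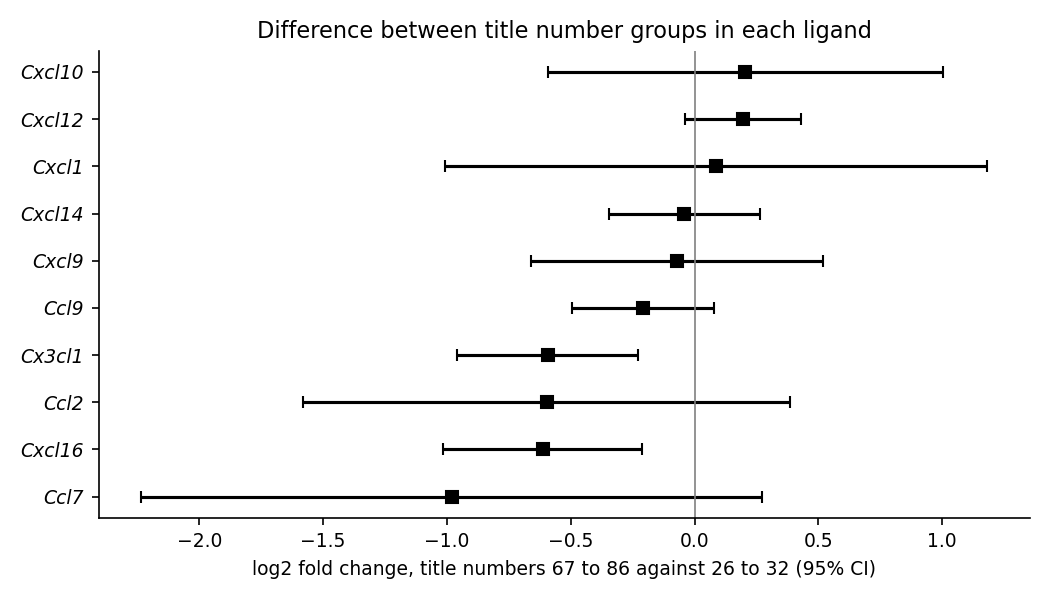
Log2 fold change of each ligand between title numbers 67 to 86 and 26 to 32 with its 95% confidence interval, from edgeR with genotype as a term. The intervals of Cx3cl1 and Cxcl16 lie below 0 and those of the 8 others include it.

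Over the 8 libraries the coefficients of Cx3cl1, Cxcl16 and Cxcl12 with each other were large, positive for the first pair and negative with Cxcl12, but none passed the threshold after adjustment. Pearson's r was 0.85 between Cxcl16 and Cx3cl1 (exact permutation p = 0.00618, adjusted p = 0.137) and Spearman's rho was 0.90. Pearson's r was 0.84 without the 2 farthest libraries, 0.64 within title number groups and 0.83 within genotypes (exact permutation within genotypes, adjusted p = 0.0781). Both genes had lower fitted levels in cKO and at title numbers 67 to 86. The permutation over all pairings does not account for these differences, so that its p-values are a description. Between Cxcl12 and Cx3cl1 r was -0.81 and rho -0.81, and between Cxcl12 and Cxcl16 r was -0.76 and rho -0.83, with adjusted p-values of 0.137 and 0.271 for r by the exact permutation test. Within title number groups the coefficients with Cxcl12 were -0.55 and -0.33, smaller in size than over all 8 libraries. Of 45 pairs, 5 had an unadjusted p under 0.05 by Pearson's r (exact permutation). The share among other pairs of genes was not computed. Between title number groups 12 of 13 NF-kB target genes tested had a lower fitted level at 67 to 86 (median log2 fold change -0.52), with summed levels of 1627 to 2246 CPM at 26 to 32 and 1482 to 1862 at 67 to 86. Erythroid and platelet genes summed to 53.8 to 130 CPM at 26 to 32 and 124 to 221 at 67 to 86. Of 30 interferon-stimulated genes tested, 27 had a higher fitted level at 67 to 86 (median 0.28), and 6 of 7 MSPC markers had a lower one (median -0.17). An unadjusted p under 0.05 (edgeR) was found for 6 NF-kB target, 4 erythroid and platelet, 9 interferon-stimulated and 2 MSPC genes, where 11.6% of all genes had one. The part of these lists in the differences of Cx3cl1 and Cxcl16 was not tested.

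**Figure D4:**
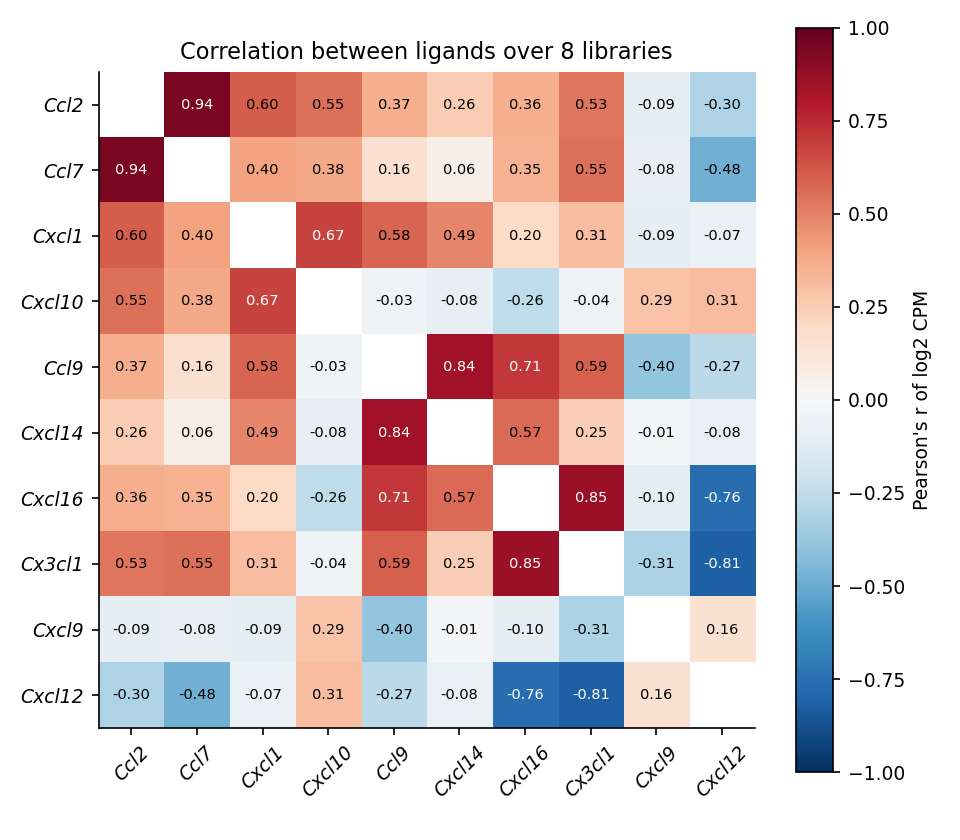
Pearson's r of log2 CPM over 8 libraries for each pair of the 10 ligands, from -1 in blue to 1 in red. The warmest cell is Ccl2 with Ccl7 (0.94), and the coldest is Cxcl12 with Cx3cl1 (-0.81).

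Levels in MSPCs were part of what chose the members, so that low levels of the ligands outside the set are partly given by that choice. Of 29 other chemokine ligands in the matrix, 11 were at 0 in all 8 libraries, 10 were at 0 in some, and 8 passed the filter on counts. A count of 0 allows up to 3 counts in a library, or 0.0785 to 0.0966 CPM, by counting error only. The most abundant were Ccl19, a CCR7 ligand, with a mean of 18.3 CPM, and Cxcl5, a neutrophil chemokine, with 9.89 CPM. They were followed by Ccl25 (5.74 CPM), a thymic and intestinal CCR9 ligand, Ccl6 (5.21 CPM), a CCR1 ligand, and Ccl17 (2.68 CPM), a CCR4 ligand. Per kilobase of exon, Ccl19 had a mean of 21.2 CPM, between Cxcl10 and Ccl7. The levels of the 2 sets overlapped. By mean CPM, Ccl19 lay above the members Cxcl16 (16.1), Ccl7 (12.1) and Cxcl1 (2.35), and the 4 other ligands named here also lay above Cxcl1.

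In the comparison of genotypes (edgeR), 0 of the 8 other ligands were called, where 0.0% of all genes were. None had an unadjusted p under 0.05, where 4.43% of all genes did. These ligands are what was left after the members were chosen with this contrast in view, so that nothing is read from the absence of calls. Their log2 fold changes ranged from -0.59 for Cxcl5 to 0.42, with a median of 0.02. The interval for Ccl19 was -0.89 to 0.90 (log2 fold change 0.01, SE 0.40), which does not show that its level was equal. Between title number groups 0 were called, where 0.0137% of all genes were, and 2 of 8 had an unadjusted p under 0.05, where 11.6% of all genes did. They were Ccl19, with a log2 fold change of -1.10 (SE 0.23, adjusted p = 0.161 by edgeR), and Ccl25, with -1.12 (SE 0.45, adjusted p = 0.388 by edgeR).

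MSPCs expressed few receptors for the ligands they make. Of 24 chemokine receptors, 8 were at 0 in all libraries and 13 in some. Ackr4, an atypical receptor that removes CCL19, CCL21 and CCL25, was the exception at 833 to 973 CPM, with a mean of 168 CPM per kilobase against 1.02 for Ccr7. By CPM it was followed by Ccrl2 (mean 2.15 CPM), Ccr7 (2.03 CPM), Ccr3 (0.871 CPM) and Ccr9 (0.761 CPM). Cxcr4, the receptor of CXCL12 and the gene deleted in blood cells other than stem cells, had 0 to 19 counts per library. No genotype can be read at that level. Receptors that bind the other members were named after their counts were seen. Ackr3 (CXCL12) had at most 17 counts, Cxcr6 (CXCL16) at most 25, Cx3cr1 (CX3CL1) at most 33, and Ccr1, Ccr2, Cxcr2 and Cxcr3 at most 14, 3, 9 and 12. None of the 3 receptors tested was called in either contrast, where 0.0% of all genes were between genotypes and 0.0137% between title number groups. Ackr4 had a log2 fold change of 0.02 between genotypes (95% CI -0.17 to 0.21) and 0.01 between title number groups.

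Genes that cleave chemokines or build the heparan sulfate that presents them made up a list of 17, led by CPM by Sdc1, Mmp14, Sdc2, Ext2 and Ctsk. Per kilobase of exon, the syndecans Sdc1 and Sdc2 had means of 221 and 167 CPM, above the mean of Cx3cl1 and below that of Cxcl14. The proteases Mmp14 and Ctsk had 105 and 136 CPM per kilobase, and the heparan sulfate polymerase Ext2 had 43.3. The sheddases Adam10 and Adam17, named here for their action on CX3CL1 and CXCL16, had 27.6 and 17.9. Of the 16 genes tested, 0 were called between genotypes, where 0.0% of all genes were, with log2 fold changes from -0.32 to 0.16. Between title number groups 0 were called, where 0.0137% of all genes were. An unadjusted p under 0.05 was found for 2 of 16, a share near the 11.6% of all genes. These were Sdc3 (0.48, adjusted p = 0.204 by edgeR) and Hs2st1 (-0.27, adjusted p = 0.383 by edgeR), named here after their values were seen.

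**Figure D5:**
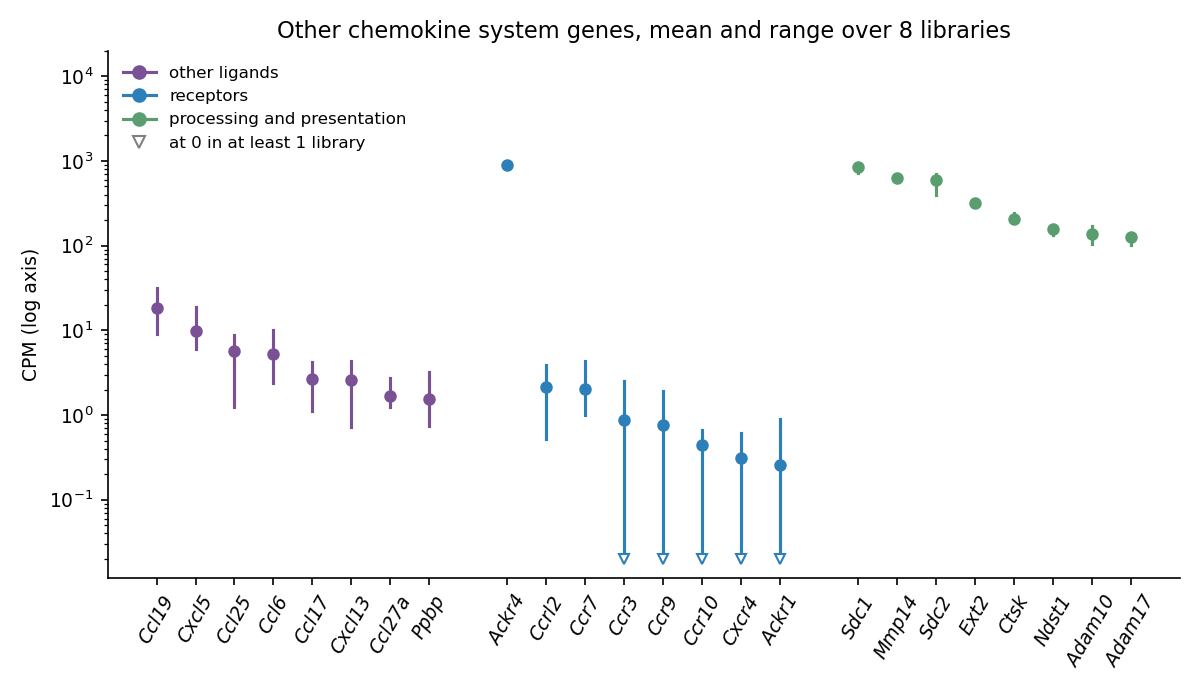
Mean (point) and range (line) of CPM over 8 libraries on a log axis for the 8 most abundant other ligands, receptors and processing and presentation genes, where an open triangle marks a gene at 0 in at least 1 library. Ackr4 lies at 906 CPM, above all other receptors.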

How the data were processed

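MSPC poly(A) RNA of 8 mice, 4 of each genotype, was sequenced as paired reads. Per the methods, trimmed reads were aligned by the authors to GRCm38 (mm10) using HISAT2 and counted using HTSeq-count on the GENCODE release that the methods name. They deposited the raw counts per gene, without normalization. The tool versions, the strand setting and the treatment of reads shared by similar genes are not given in the sources used here. The study's own test was DESeq2's likelihood ratio test with a batch term, and the labels name no batch. Of 52636 genes in the table, 52403 had a symbol and gene model in GENCODE M21 when joined on the Ensembl identifier with its version dropped. Among deposited counts from 1 to 20, 58.6% were odd, and the counts were used as they stand.

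Library sizes were scaled by TMM, and CPM is the count divided by the total count and the TMM factor and multiplied by 1e6. The 14598 genes counted at least once in each library entered quasi-likelihood tests (glmQLFit, glmQLFTest) of edgeR 4.0.16 in R 4.3.3, adjusted over all genes by Benjamini-Hochberg with a threshold of 0.05, between genotypes without covariates and between title number groups with genotype as a term. Log2 CPM values used a prior count of 2. SE is the standard error of the log2 fold change. Correlations were tested by an exact two-sided permutation test over all pairings of 8 libraries and adjusted over 45 pairs. The test was coded in numpy 2.4.6, with ranks from scipy 1.17.1. That test does not account for genotype or title number group. An exact test over the 576 pairings within genotypes was added after the data were seen. CPM per kilobase is divided by the merged exon length. Total counts of 31047344 to 38216877 per library set the precision, and each library stands for 1 mouse. The scripts were tested on simulated data.

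Members, gene lists and tests were chosen with earlier results of these data known. Genes named are the 10 ligands, the 5 other ligands, receptors and processing and presentation genes with the highest mean CPM, Cxcr4, and any listed gene past the threshold, of which there were 0. Receptors and sheddases of the ligands, marker genes from the lists, Sdc3 and Hs2st1 were named outside this rule. Start site windows came from RefSeq (GRCm38.p6) and were given for 7 of the 10 ligands, without Ccl2, Ccl7 and Cxcl16. Alternatives were other scalings and filters, DESeq2 1.42.0, limma-voom (limma 3.58.1), a term for the title number group, the replicate number as a block, and each library left out in turn. Same-numbered CTR and cKO libraries had correlations of 0.0572 to 0.176 between their deviations from the group means, and the numbers were not taken as pairs.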

Additional observations from a re-analysis of the deposited data

Results flagged for a closer look

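Over 20 groups examined, that is 10 ligands in CTR and in cKO, 1 had a library that stood apart from the other 3, and chance alone gives about 1. In cKO, Ccl9 was at 99.2 CPM in replicate 4 and between 73.5 and 77.9 CPM in the other libraries. The gap between replicate 4 and the nearest cKO library was 0.8291 of the whole cKO range, just past the limit for 4 samples. Without cKO replicate 4 the log2 fold change of Ccl9 was -0.87 in place of -0.76. The same library held the highest Ccl2, Ccl7 and Cx3cl1 of all 8 libraries.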

How the results depend on the processing

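The fitted log2 fold changes of the 10 ligands between genotypes kept their sign in 18 other settings for Ccl9, Cxcl14, Cxcl1, Cxcl9, Cxcl16 and Cx3cl1, and turned in 3 settings for Cxcl12 (-0.06 to 0.06), 4 for Ccl2 (-0.64 to 0.24), 1 for Ccl7 (-0.50 to 0.76) and 3 for Cxcl10 (-0.23 to 0.17). Between genotypes, 1 gene was called with edgeR's filterByExpr and 1 without a filter in place of 0, 23 with DESeq2's Wald test and 47 with its likelihood ratio test when a title number term was added. Between title number groups, 1 gene was called with DESeq2 size factors in edgeR, 4 without a filter, 380 with DESeq2's Wald test and 0 without the genotype term, in place of 2, and 0 to 4 when each library was left out. DESeq2's Wald test called 2 ligands between these groups, Cxcl16 (log2 fold change -0.61) and Cx3cl1 (-0.59), in place of 0. By Spearman's rho 1 of 45 pairs passed and by Pearson's r 0, also 0 with pairings within genotypes, an alternative chosen after seeing the data. The cause of these differences was not tested. The other chemokine family genes had 0 calls between genotypes in all 19 settings, where 0 to 47 of all genes were called, and nothing is read from this. With the replicate number as a block, 0 genes were called between genotypes and 812 had an unadjusted p under 0.05 against 646 without it. Of the 8 libraries, 7 correlated best with the library of their own number in the other genotype, CTR replicate 4 being the exception (0.128 with cKO replicate 2). All combinations within a title number group had positive correlations (0.0465 to 0.176), and all across the groups had negative ones (-0.155 to -0.0405). For CTR replicate 3 the values were 0.0844 with cKO replicate 3 and 0.0818 with cKO replicate 1. Cxcl1, at 24 to 151 counts per library, is the ligand whose precision depth limits most.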

Other observations

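The lowest and highest levels of the 10 ligands were spread over all libraries but CTR replicate 3. Among the 8 libraries, cKO replicate 1 had the lowest level of 4 ligands (Ccl2, Ccl7, Cxcl1 and Cxcl10) and cKO replicate 4 the highest of 3 (Ccl2, Ccl7 and Cx3cl1), while CTR replicate 2 had the highest Ccl9, Cxcl14 and Cxcl16. CTR replicates 3 and 4 held the highest level of 0 ligands. As a description over 8 libraries that share genotype and title number structure, the mean log2 CPM of the NF-kB target list had a Pearson's r of 0.78 with Ccl2, 0.76 with Ccl7, 0.78 with Cxcl16 and 0.72 with Cx3cl1, against 0.09 with Cxcl9 and 0.16 with Cxcl10. The immediate early list had similar values with Cxcl16 (0.77) and Cx3cl1 (0.70), and the interferon-stimulated list had -0.77 and -0.69, so that these values are not particular to a list. The interferon-stimulated list had an r of 0.41 with Cxcl9 and -0.05 with Cxcl10, both of which are known as interferon-induced chemokines.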
